A study of Mus musculus with 6 samples.

Results

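Type I interferon-stimulated genes are the genes that cells switch on when an interferon of the alpha or beta kind binds its receptor. The 36 genes described here were taken as a named list: sensors of viral nucleic acid, signalling proteins and transcription factors, the ISG15 system, antiviral effectors and other interferon-induced genes. A gene counted as measured when the platform annotation gave a transcript cluster, the array's feature for 1 transcribed locus, that symbol and no other. By this rule 33 of the 36 had a cluster, out of 23521 clusters and 22180 symbols tested, and of several clusters for a gene the brightest on average was used. Dtx3l and Ifi27l2a lay only on clusters shared with a neighbour, and Ifi44 was not analysed here.

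The samples are normal-looking colonic mucosa taken next to tumours from 6 male BALB/c mice, 1 Affymetrix Mouse Gene 2.0 ST array per mouse. Of these, 4 were wild type (Mthfd1S+/+, here WT) and 2 were heterozygous Mthfd1S+/-, a line deficient in the synthetase activity of the folate enzyme MTHFD1 and backcrossed for at least 10 generations. Both genotypes had received the colon carcinogen azoxymethane (AOM), 6 mg/kg by intraperitoneal injection, at 3 months of age. They then drank 3% dextran sulfate sodium (DSS), an agent that damages the gut lining, in 2 cycles of 4 days at weeks 1 and 4, and were killed in week 13; the age label reads 7 months. No untreated mucosa is among the samples, so every value below is from tissue exposed to AOM and DSS. The comparison asks whether the mucosa of Mthfd1S+/- mice differs from that of WT mice in these genes.

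Interferon alpha and beta bind a common receptor whose kinases, JAK1 and TYK2, act on signalling proteins that include STAT2. STAT2 and IRF9 are subunits of the factor ISGF3, which binds interferon-stimulated response elements near the start of its target genes. The products sense viral RNA, block translation, degrade or edit RNA and modify proteins with ISG15, and several of them, such as IRF7 and the RNA sensors, feed back to raise interferon production. In the intestine a low tonic interferon signal is kept up by contact with the microbiota and viruses, and immune cells as well as epithelial cells respond to it.

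As a group the genes read lower in the Mthfd1S+/- mice, and none of them passed the test across all clusters. The mean of 32 of the 33 genes (97.0%) was lower in the 2 Mthfd1S+/- mice than in the 4 WT mice, against 46.0% of all tested clusters. The median log2 fold change (Mthfd1S+/- minus WT) was -0.26 over the genes and 0.012 over all clusters. In limma's moderated test 0 of the 33 were below an adjusted p of 0.05 (Benjamini-Hochberg over all clusters), as were 0.0% of all clusters, and unmoderated least squares also gave 0. At an unadjusted p under 0.05, 13 of the 33 (39.4%) were lower, against 2.44% of all clusters, and 0 were higher, against 3.36% of all clusters. The values of both groups were apart, with both Mthfd1S+/- mice below all 4 WT mice, for 11 genes (33.3%), against 6.04% of clusters. They were apart in the other direction for 1 gene, Isg20, against 7.96% of clusters. In 6 genes the Mthfd1S+/- mean was at least 1.5-fold lower (Usp18, Mx2, Rtp4, Ifi27l2b, Xaf1 and Isg15), against 0.289% of clusters. In whole mucosa fewer cells of a responding type and less RNA per cell cannot be told apart.

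Both counts depended on single mice. The count of 13 was 21 without WT mouse 4, when 2.94% of all clusters were lower at that p. It was 9 without WT mouse 1 and 9 without WT mouse 3, when 2.03% and 2.23% of all clusters were lower. The median log2 fold change of the genes was -0.20 without Mthfd1S+/- mouse 2 and -0.36 without Mthfd1S+/- mouse 1. The count of 11 was 24 without WT mouse 4, when 9.45% of all clusters were apart in this direction, and 22 without Mthfd1S+/- mouse 1, when 21.9% were. Of 15 markers of smooth muscle, a tissue that lies beneath the mucosa, 15 had a higher mean in Mthfd1S+/- mice, against 12708 of 23521 clusters. In 0 of the 15 were both Mthfd1S+/- mice above all WT mice, against 7.96% of clusters. The mean deviation of these markers from the WT mean was -0.081, -0.19, 0.056 and 0.22 for WT mouse 1, 2, 3 and 4. It was 0.035 for Mthfd1S+/- mouse 1, within the WT values, and 0.53 for Mthfd1S+/- mouse 2, above them. With that mean as a covariate the median of the interferon-stimulated genes was -0.16, with a lower fitted value in 26 of 33. At an unadjusted p under 0.05, 3 of them were lower instead of 13, when 2.03% of all clusters were lower. With the arrays centred on their medians 12 were lower and 0 higher. Over all clusters that scaling changed the split at this p from 573 lower and 790 higher to 401 lower and 1110 higher.

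**Figure D1:**
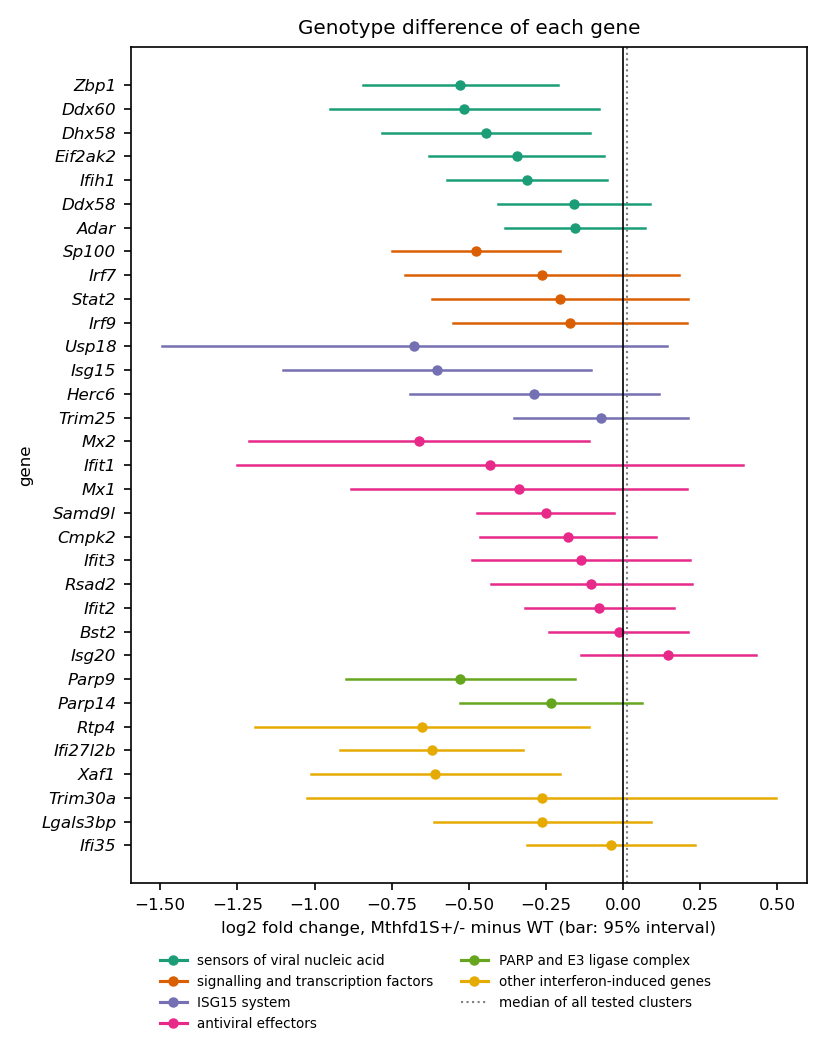
Log2 fold change, Mthfd1S+/- minus WT, of each of the 33 genes (points; bars are 95% intervals from limma), coloured by role. The dotted line is the median of all tested clusters at 0.012; 32 points lie below 0 and the intervals of 13 genes exclude 0.

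The promoters of 6 of the genes are shown because ISGF3 acts through short elements near the start site and because these 6 differ in whether the window holds one. Sequences are from RefSeq (GRCm38.p6): 250 bases before to 50 after the start, on the strand of the gene. Capitals mark matches to the core of the response element, searched as GAAANNGAAA and, for the other strand, TTTCNNTTTC; matches may overlap each other. Isg15 (chr4:156200769-156201068, minus strand), a ubiquitin-like modifier, had 3 overlapping matches, the first 78 bases before the start. Ddx60 (chr8:61927837-61928136, plus strand), a helicase related to the RNA sensors, had 2, the first 53 bases before the start. Ifit1 (chr19:34640639-34640938, plus strand), which binds viral RNA lacking host cap marks, had 2 on the other strand, the first 104 bases before the start. Ifih1 (chr2:62646206-62646505, minus strand) encodes the sensor MDA5 and had 1, which began 32 bases after the start. Eif2ak2 (chr17:78882523-78882822, minus strand) encodes the kinase PKR and had 1, at 18 bases after it. Xaf1 (chr11:72301379-72301678, plus strand), a partner of the apoptosis inhibitor XIAP, had 0.
Ifih1: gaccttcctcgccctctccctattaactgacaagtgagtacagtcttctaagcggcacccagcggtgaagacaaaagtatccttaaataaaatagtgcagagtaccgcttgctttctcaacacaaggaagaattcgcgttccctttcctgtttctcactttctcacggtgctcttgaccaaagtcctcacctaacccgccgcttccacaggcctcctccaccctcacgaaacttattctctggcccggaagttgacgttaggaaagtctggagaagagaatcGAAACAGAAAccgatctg
Isg15: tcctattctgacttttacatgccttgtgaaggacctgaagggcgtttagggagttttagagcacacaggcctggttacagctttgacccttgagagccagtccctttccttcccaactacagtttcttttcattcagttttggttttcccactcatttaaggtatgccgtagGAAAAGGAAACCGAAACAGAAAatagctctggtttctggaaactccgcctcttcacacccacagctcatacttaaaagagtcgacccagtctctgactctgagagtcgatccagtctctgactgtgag
Ddx60: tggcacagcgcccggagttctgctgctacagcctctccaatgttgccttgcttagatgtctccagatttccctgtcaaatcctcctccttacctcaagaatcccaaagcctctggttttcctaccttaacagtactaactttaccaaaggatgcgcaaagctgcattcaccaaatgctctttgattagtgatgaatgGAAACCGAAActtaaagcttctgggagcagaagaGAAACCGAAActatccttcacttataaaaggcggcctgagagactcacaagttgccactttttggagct
Xaf1: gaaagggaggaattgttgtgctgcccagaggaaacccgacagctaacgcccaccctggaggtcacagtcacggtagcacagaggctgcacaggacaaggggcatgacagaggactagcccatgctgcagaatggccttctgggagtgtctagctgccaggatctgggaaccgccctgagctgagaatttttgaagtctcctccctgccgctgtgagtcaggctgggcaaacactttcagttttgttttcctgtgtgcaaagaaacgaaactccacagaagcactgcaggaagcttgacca
Eif2ak2: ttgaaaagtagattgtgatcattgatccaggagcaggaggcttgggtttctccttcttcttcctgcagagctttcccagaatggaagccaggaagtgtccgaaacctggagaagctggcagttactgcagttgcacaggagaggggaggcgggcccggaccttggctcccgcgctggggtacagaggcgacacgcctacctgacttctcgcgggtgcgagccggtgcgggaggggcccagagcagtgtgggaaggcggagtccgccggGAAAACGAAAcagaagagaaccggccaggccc
Ifit1: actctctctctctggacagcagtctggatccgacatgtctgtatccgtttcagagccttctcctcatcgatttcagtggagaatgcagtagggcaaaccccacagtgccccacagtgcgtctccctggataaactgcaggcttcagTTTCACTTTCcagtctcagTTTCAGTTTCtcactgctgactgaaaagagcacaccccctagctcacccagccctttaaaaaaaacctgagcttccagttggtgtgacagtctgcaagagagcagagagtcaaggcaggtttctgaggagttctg

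A window was available for 26 of the 36 genes, and 11 of them (42.3%) held a match, against 1079 of 27025 genes (3.99%) in the whole table. The 11 genes with a match had a median log2 fold change of -0.26, and 4 of them were lower at an unadjusted p under 0.05. The 13 measured genes whose windows lacked it had a median of -0.18, with 3 lower at that p. The 9 measured genes with no window had -0.53, with 6 lower. A match in such a window is a description and says nothing of binding in this tissue.

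All 7 sensors of viral nucleic acid had a lower mean in Mthfd1S+/- mice, 5 of them at an unadjusted p under 0.05, with a median of -0.34. Zbp1, which recognises left-handed nucleic acid and can start necroptosis, stood at 8.42, 8.22, 8.56 and 8.07 (log2) in WT mice 1 to 4. It read 7.86 and 7.72 in the Mthfd1S+/- mice, both below every WT mouse. Its means were 8.32 ± 0.21 (SD, n = 4) and 7.79 ± 0.099 (SD, n = 2), a log2 fold change of -0.53 ± 0.14 (SE; limma adjusted p = 0.837). The same adjusted p of 0.837 held for all 13 genes at an unadjusted p under 0.05 and is not repeated below.

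Ifih1 (MDA5), which senses long double-stranded RNA, read 9.55, 9.35, 9.50 and 9.43 in WT and 9.32 and 8.98 in Mthfd1S+/- mice. The groups did not overlap, but Mthfd1S+/- mouse 1 lay only just below the lowest WT mouse. The log2 fold change was -0.31 ± 0.11 (SE), and it was -0.14 without Mthfd1S+/- mouse 2 and -0.48 without mouse 1. Dhx58 encodes LGP2, which tunes MDA5 and RIG-I. It read 7.12, 6.80, 6.93 and 6.60 in WT and 6.55 and 6.30 in Mthfd1S+/- mice, again without overlap (-0.44 ± 0.15). Ddx60 read 7.83, 7.49, 7.77 and 7.11 in WT and 7.12 and 6.94 in Mthfd1S+/- mice, so that WT mouse 4 lay between the Mthfd1S+/- mice (-0.51 ± 0.19).

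Eif2ak2 (PKR), which halts translation by phosphorylating eIF2 alpha when it binds double-stranded RNA, read 7.86, 7.61, 7.66 and 7.51 in WT mice. The Mthfd1S+/- mice read 7.46 and 7.17, below all of them (-0.34 ± 0.12), and without Mthfd1S+/- mouse 2 the log2 fold change was -0.20. Ddx58, the gene of RIG-I, and Adar, whose product edits adenosine to inosine in double-stranded RNA, had smaller differences, each -0.16, with standard errors of 0.11 and 0.0996. Both overlapped between the groups.

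Among signalling proteins and transcription factors all 4 means were lower, and 1 of 4 at an unadjusted p under 0.05. That gene was Sp100, a component of nuclear bodies that is induced by interferon. It read 8.14, 7.86, 8.18 and 7.86 in WT and 7.497 and 7.57 in Mthfd1S+/- mice, with no overlap and a log2 fold change of -0.48 ± 0.12 (SE). A second Sp100 cluster of lower signal gave -0.37 ± 0.10, and 2 dim ones gave -0.096 and -0.15. The subunits of ISGF3 differed less: Stat2 differed by -0.20 ± 0.18 and Irf9 by -0.17 ± 0.17. Irf7, the factor that amplifies interferon alpha production, differed by -0.26 ± 0.19. For these 3 genes the groups overlapped and the intervals held 0. Without Mthfd1S+/- mouse 2, Irf7 differed by -0.014, Stat2 by -0.051 and Irf9 by -0.10; without mouse 1, Irf7 differed by -0.51 and Stat2 by -0.36.

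The ISG15 system conjugates a ubiquitin-like protein to other proteins and removes it again. Isg15, the modifier itself, read 7.01, 6.73, 7.04 and 6.21 in WT mice and 6.26 and 6.03 in Mthfd1S+/- mice. WT mouse 4 lay between the Mthfd1S+/- mice and the other 3 WT mice lay above them; the log2 fold change was -0.60 ± 0.22 (SE). Usp18, which strips ISG15 from proteins and restrains the interferon receptor, read 7.92, 6.80, 7.44 and 6.43 in WT and 6.61 and 6.33 in Mthfd1S+/- mice. Its mean difference, -0.68 ± 0.36, had the largest size of the 33 genes, yet its WT mice alone spanned 2.82-fold and its interval held 0 (limma adjusted p = 0.86). Herc6, a main ISG15 ligase in mouse, differed by -0.29 ± 0.18, and Trim25, a ligase that acts on RIG-I, by -0.07 ± 0.12.

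**Figure D2:**
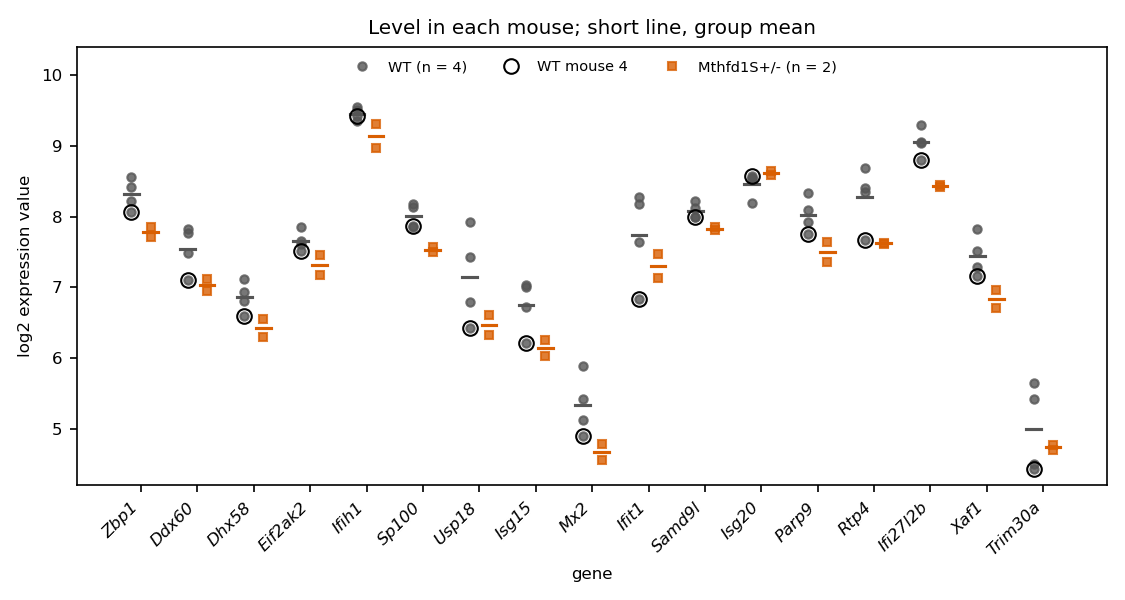
Log2 expression value in each mouse of the 17 genes whose mouse values are given in the text (grey circles, WT, n = 4; orange squares, Mthfd1S+/-, n = 2; short lines, group means; ringed circle, WT mouse 4). Orange squares lie below all grey circles in 11 genes and above them in Isg20, and the ringed mouse is the lowest WT mouse in most genes.

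The antiviral effectors, the proteins that act on the virus, had a lower mean in 9 of 10 genes, 2 of them at an unadjusted p under 0.05, and the median was -0.16. Mx2, a dynamin-like GTPase, read 5.89, 5.42, 5.12 and 4.90 in WT and 4.55 and 4.79 in Mthfd1S+/- mice, with no overlap (-0.66 ± 0.24, SE). Samd9l, which restricts translation in infected cells, read 8.23, 7.99, 8.12 and 7.99 in WT and 7.81 and 7.85 in Mthfd1S+/- mice. That is a small difference, -0.25 ± 0.097, with a narrow spread in both groups. Mx1, the relative of Mx2, differed by -0.34 ± 0.24 with overlap; many laboratory strains, BALB/c among them, carry a defective Mx1.

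Ifit1 read 8.28, 7.64, 8.18 and 6.84 in WT mice and 7.47 and 7.14 in Mthfd1S+/- mice. WT mouse 4 was the lowest of all 6, and the log2 fold change of -0.43 ± 0.36 (SE; limma adjusted p = 0.905) was little larger than its error. Its relatives Ifit2 (-0.08 ± 0.11) and Ifit3 (-0.14 ± 0.15) differed less, as did Rsad2 (-0.10 ± 0.14), whose product viperin makes a chain-terminating nucleotide, and its neighbour Cmpk2 (-0.18 ± 0.12), a nucleotide kinase. Bst2, the gene of tetherin, which holds budding virus at the cell surface, overlapped between the groups (-0.01 ± 0.099, 95% interval -0.24 to 0.21).

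Isg20, an exonuclease for single-stranded RNA, was the exception in direction. It read 8.55, 8.19, 8.55 and 8.58 in WT and 8.59 and 8.64 in Mthfd1S+/- mice, a log2 fold change of 0.15 ± 0.12 (SE; limma adjusted p = 0.907). The gap between the groups was narrow, and without the low WT mouse 2 the log2 fold change was 0.053.

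Parp9 and Parp14 are interferon-induced members of the ADP-ribosyltransferase family, and PARP9 works in a complex with the ubiquitin ligase DTX3L. Parp9 read 8.33, 7.92, 8.09 and 7.75 in WT and 7.64 and 7.35 in Mthfd1S+/- mice, without overlap (-0.53 ± 0.16, SE). Parp14 differed by -0.23 ± 0.13 with overlap. The cluster shared by Dtx3l and Parp9 read 8.26, 7.995, 8.11 and 7.77 in WT and 8.01 and 7.77 in Mthfd1S+/- mice, where the groups overlapped, so the 2 clusters that touch Parp9 did not separate the mice alike. Parp14, Dtx3l and Parp9 lie next to one another on chromosome 16 in the RefSeq order.

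The 6 remaining genes all had lower means, 3 of them at an unadjusted p under 0.05. Ifi27l2b, of the IFI27 family of small hydrophobic proteins, had the smallest p of the list. It read 9.29, 9.05, 9.05 and 8.80 in WT and 8.42 and 8.44 in Mthfd1S+/- mice, a log2 fold change of -0.62 ± 0.13 (SE). The lowest WT mouse was well above both Mthfd1S+/- mice. The cluster that Ifi27l2b shares with Ifi27l2a read 6.46, 6.07, 6.65 and 6.12 in WT and 6.02 and 6.06 in Mthfd1S+/- mice, also without overlap but by a narrow margin. Probes for such close relatives may read each other's transcripts, which also holds for the Ifit, Mx and Trim30 families.

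Xaf1 read 7.83, 7.29, 7.51 and 7.17 in WT and 6.96 and 6.71 in Mthfd1S+/- mice, again apart (-0.61 ± 0.18, SE). Rtp4, a chaperone of cell-surface receptors that is also induced by interferon, read 8.68, 8.36, 8.40 and 7.67 in WT mice and 7.63 and 7.62 in Mthfd1S+/- mice. WT mouse 4 nearly met the Mthfd1S+/- pair while the other WT mice lay well above (-0.65 ± 0.24). Trim30a, a ring-finger protein that restrains inflammatory signalling in mouse, read 5.64, 4.51, 5.41 and 4.43 in WT and 4.77 and 4.70 in Mthfd1S+/- mice. Here the WT mice fell into a high and a low pair with the Mthfd1S+/- mice in between (-0.26 ± 0.33; limma adjusted p = 0.946). Lgals3bp, a secreted glycoprotein, differed by -0.26 ± 0.15 and Ifi35, a small interferon-induced signalling protein, by -0.04 ± 0.12, both with overlap.

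The exact two-sided permutation test on single genes has 15 assignments of the 6 arrays and cannot give a p below 0.0667. This smallest p was reached by 5 genes: Ifih1, Zbp1, Eif2ak2, Sp100 and Ifi27l2b. No gene could pass 0.05 by that test.

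**Figure D3:**
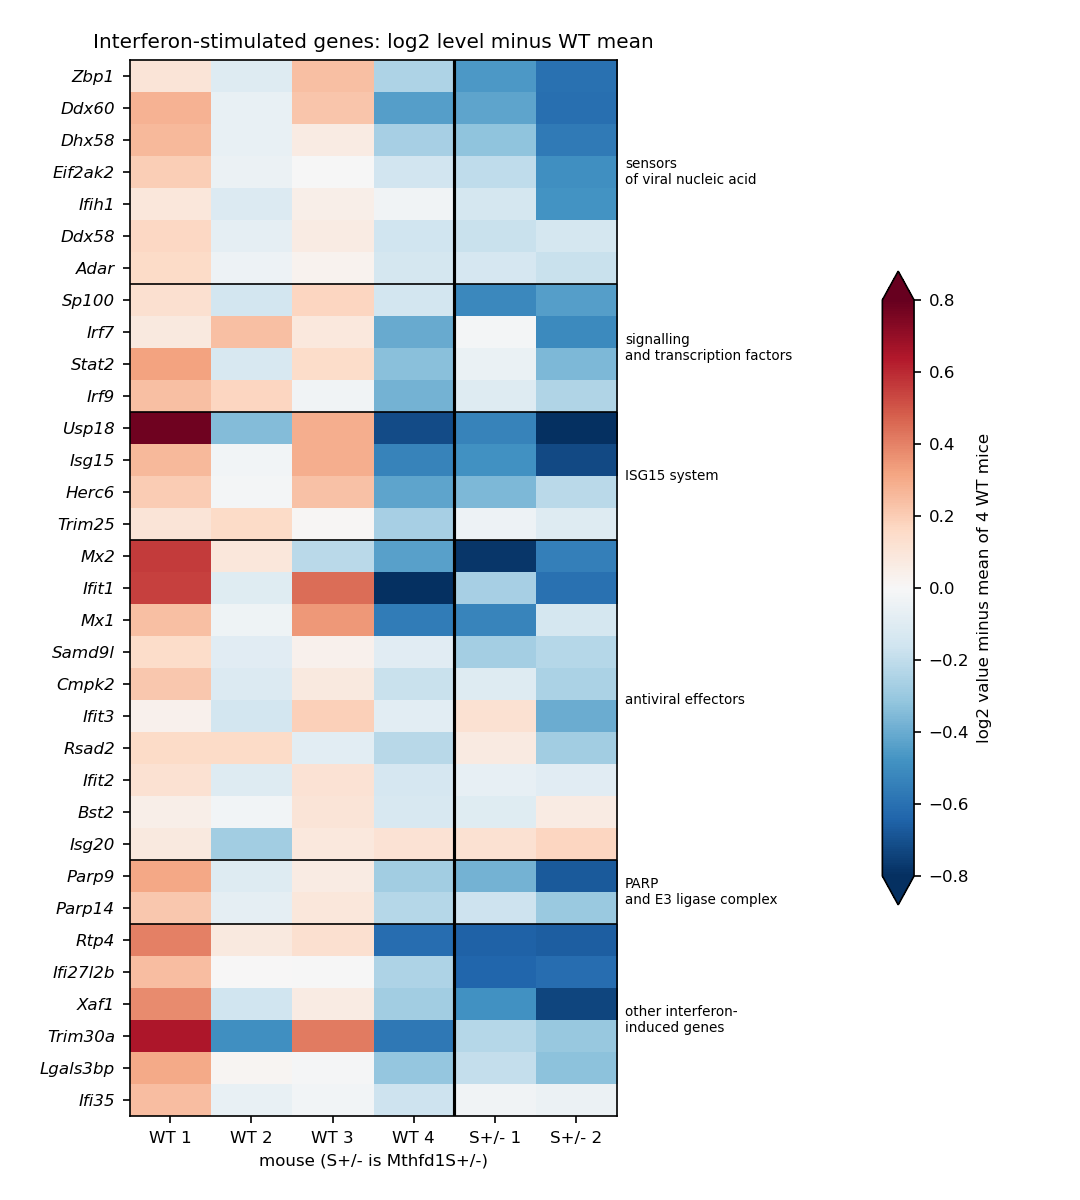
Log2 value minus the mean of the 4 WT mice for the 33 genes (rows, by role) in each mouse (columns; S+/- is Mthfd1S+/-), with the colour scale ending at 0.8 in either direction. WT mouse 1 is red in most rows, and WT mouse 4 is blue in most rows, as are both Mthfd1S+/- mice.

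The same mice were high or low in many of the genes, also within one genotype. Their mean deviation from the WT mean was 0.25, -0.061, 0.11 and -0.30 for WT mouse 1, 2, 3 and 4, and -0.26 and -0.38 for Mthfd1S+/- mouse 1 and 2. By this mean WT mouse 4 lay between the Mthfd1S+/- mice, and the other 3 WT mice lay above both. WT mouse 1 had the highest WT value in 23 of 33 genes, against 26.3% of all clusters, and WT mouse 4 the lowest WT value in 28 of 33, against 23.6% of clusters. WT mouse 4 was below both Mthfd1S+/- mice in 10 genes, between them in 12 and above both in 11; over all clusters these shares were 32.3%, 38.9% and 28.8%. In 24 genes (72.7%) both Mthfd1S+/- mice were below WT mice 1, 2 and 3, against 9.45% of clusters. Of the Mthfd1S+/- mice, mouse 2 was the lower in 24 of 33 genes, against 52.9% of clusters. The smooth muscle markers had their highest mean deviation in Mthfd1S+/- mouse 2 (0.53), followed by WT mouse 4 (0.22). WT mouse 2 had the lowest (-0.19), with -0.061 for the interferon-stimulated genes. WT mouse 3 was above the WT mean in both lists (0.056 and 0.11). Mthfd1S+/- mouse 1 had 0.035 with -0.26, and WT mouse 1 had -0.081 with 0.25. The part of smooth muscle in the interferon values was not tested beyond the covariate fit above. The genes share arrays and respond to the same signal, so they are not independent observations of a mouse.

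The spread among WT mice was larger in these genes than in most clusters. Their median SD over the 4 WT mice was 0.21, against 0.114 over all clusters and 0.105 over the 16686 clusters with a mean of at least that of the dimmest of the genes. The SD exceeded the median of all clusters in 30 of 33 genes, and its 90th percentile, 0.234, in 15. Usp18 and Ifit1 had the widest WT ranges, 2.82-fold and 2.72-fold, followed by Trim30a with 2.33-fold and Rtp4 with 2.02-fold. At the other end Ifih1 had a WT SD of 0.087. The median standard error of a log2 fold change was 0.147 against 0.106 over all clusters.

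**Figure D4:**
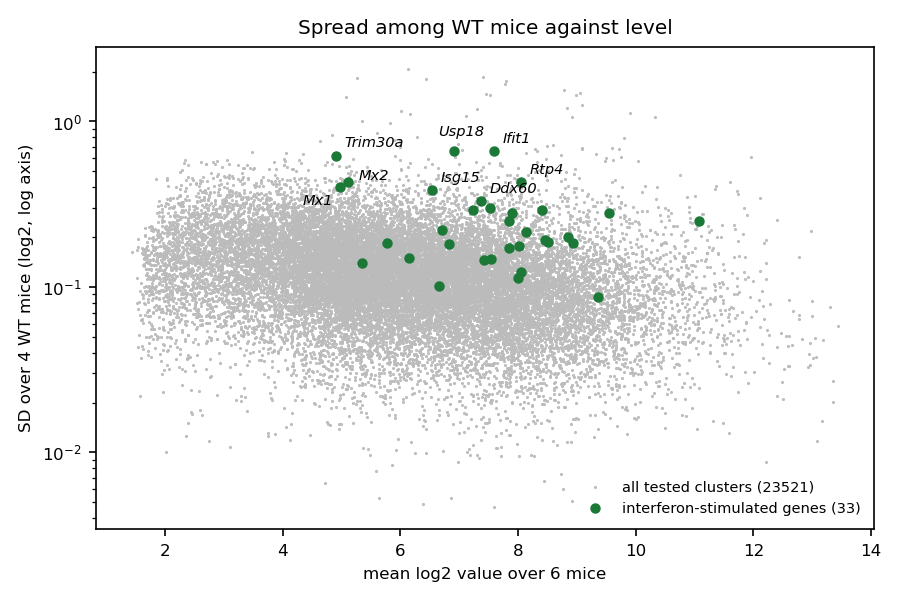
SD over the 4 WT mice (log axis) against the mean log2 value over 6 mice for all 23521 tested clusters (grey) and the 33 genes (green, the 8 with the largest SD named). The green points lie mostly above the middle of the grey cloud, with a median SD of 0.21 against 0.114.

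The genes upstream were divided in direction or differed little. Of 19 interferon ligand genes 11 had a lower and 8 a higher mean in Mthfd1S+/- mice, 0 at an unadjusted p under 0.05, and the median log2 fold change was -0.011. Their median level was at the 24.3rd percentile of all clusters, and detection calls were not used here. Ifnb1, the interferon beta gene, had a WT mean of 3.62 ± 0.11 (SD, n = 4) and a Mthfd1S+/- mean of 3.81 ± 0.26 (SD, n = 2). Of 14 receptor and proximal signalling genes 10 were lower, 0 at an unadjusted p under 0.05, with a median of -0.040. Tyk2, a kinase of the receptor, differed by -0.16 ± 0.084 (SE), and Ifnlr1, the receptor chain of the epithelial interferon lambda, by -0.20 ± 0.11. Of 19 genes of interferon induction (sensor adaptors, kinases and factors) 10 were lower and 9 higher, 0 at an unadjusted p under 0.05, with a median of -0.027. Irf8, a factor of dendritic cells and macrophages, differed by -0.20 ± 0.090, and the RNA receptor Tlr7 by 0.23 ± 0.11.

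Other interferon-responsive families were set beside the list. The oligoadenylate synthetases, which activate the ribonuclease RNase L, came closest to it: 9 of 11 had a lower mean, with a median of -0.28. At an unadjusted p under 0.05, 3 were lower and 1 higher, against 2.44% and 3.36% of all clusters. Both Mthfd1S+/- mice lay below all WT mice in 2 of the 11, against 6.04% of clusters, and above them in 1, against 7.96%. Oas1g read 9.76, 9.47, 9.22 and 8.86 in WT and 8.55 and 8.65 in Mthfd1S+/- mice, with no overlap (-0.72 ± 0.21, SE). Oas3 differed by -0.51 ± 0.17, and Oasl2, whose WT mouse 4 lay between the Mthfd1S+/- mice, by -0.72 ± 0.27. Oas1d, a dim cluster, was the 1 higher at that p (0.47 ± 0.098), with both Mthfd1S+/- mice above all WT mice. For all 4 of these the limma adjusted p was 0.837.

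The GTPases that respond mainly to interferon gamma had a lower mean in 12 of 14 genes but a median of only -0.061, with 1 lower (Gbp8, -0.47 ± 0.15) and 1 higher (Gbp10, 0.27 ± 0.096) at an unadjusted p under 0.05. Of 17 genes of MHC class I presentation 12 were lower, 0 at an unadjusted p under 0.05, with a median of -0.031; the peptide transporter Tap1 differed most clearly (-0.30 ± 0.13). Whether these families differ from the interferon-stimulated genes in their response was not tested.

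**Figure D5:**
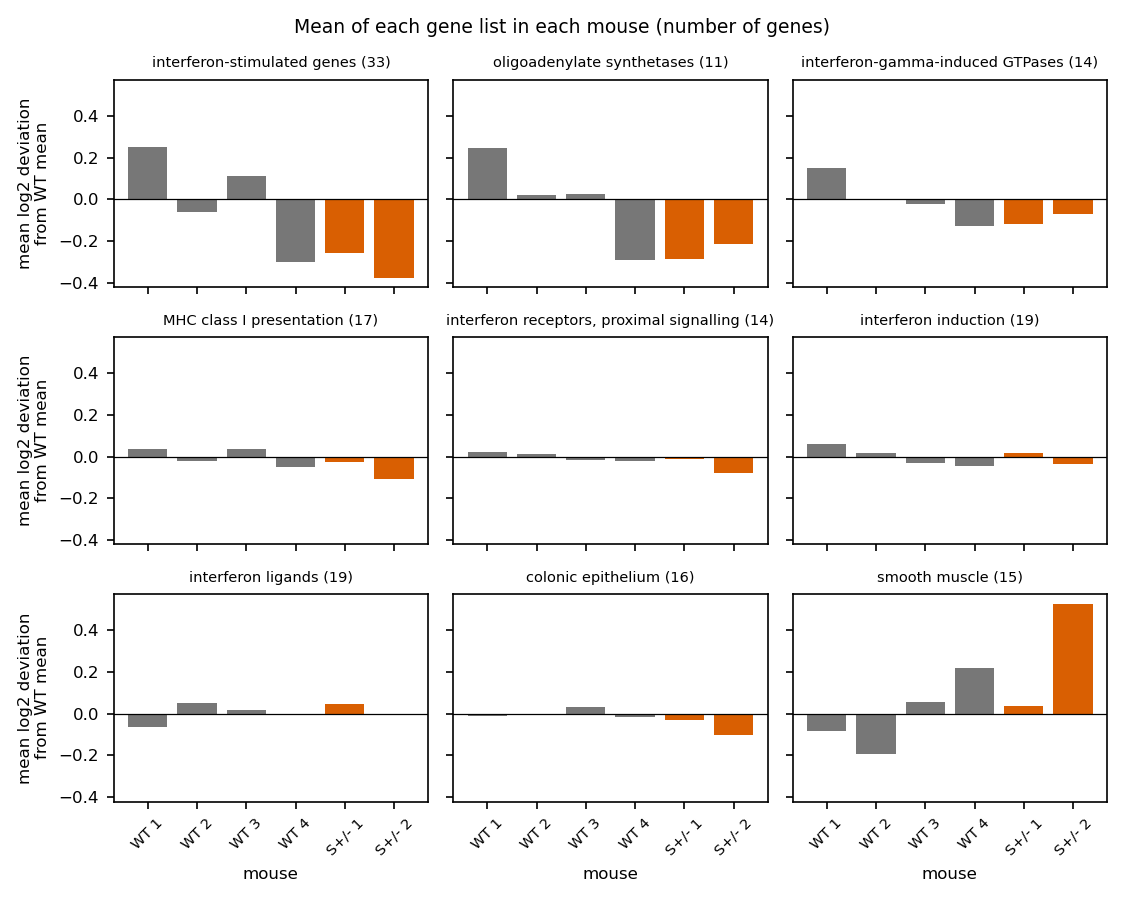
Mean log2 deviation from the WT mean of each gene list in each mouse (bars; grey, WT; orange, Mthfd1S+/-; number of genes in brackets). The interferon-stimulated genes and the oligoadenylate synthetases have the same order of high and low WT mice, the ligand, receptor and induction lists stay near 0, and the smooth muscle markers peak at 0.53 in Mthfd1S+/- mouse 2.

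The tissue label was checked against markers. The 16 markers of colonic epithelium had a median level at the 99.4th percentile of all clusters, and their mean deviation was within -0.014 to 0.031 in WT mice and -0.029 and -0.10 in Mthfd1S+/- mice, with 13 of 16 lower. Plasmacytoid dendritic cells, the main makers of interferon alpha, had 4 of 9 markers lower, with a median of 0.0057. Pacsin1 was higher at an unadjusted p under 0.05 (0.27 ± 0.11, SE). Klk1 of this list stood at the 99.96th percentile of all clusters, and how far the list reads these cells alone was not tested. Markers of macrophages and dendritic cells (6 of 14 lower, median 0.044), neutrophils (6 of 12, -0.0035), T and NK cells (8 of 15, -0.00099) and B and plasma cells (7 of 12, -0.045) were also divided in direction. At an unadjusted p under 0.05, 2 of the 12 B and plasma cell markers were lower and 0 higher, against 2.44% and 3.36% of all clusters. The lower ones were the plasma cell genes Tnfrsf17 (-0.44 ± 0.13) and Mzb1 (-0.38 ± 0.14). Both Mthfd1S+/- mice lay below all WT mice in 2 markers of this list, against 6.04% of all clusters. Tnfrsf17 was 1 of these, but Mzb1 overlapped, with 6.81 in Mthfd1S+/- mouse 2 and 6.77 in WT mouse 4. Both Mthfd1S+/- mice lay above all WT mice in 2 others, Pax5 (0.18 ± 0.089) and Cd79b (0.17 ± 0.095), against 7.96% of all clusters. Of the 15 T and NK cell markers 1 was lower at an unadjusted p under 0.05, Foxp3 of regulatory T cells (-0.30 ± 0.10). It was also the 1 marker of the 15 with both Mthfd1S+/- mice below all WT mice, against 6.04% of all clusters. The macrophage and dendritic cell list, the neutrophil list and the epithelial list had 0 at an unadjusted p under 0.05 in either direction. The part of any of these cells in the interferon values was not tested. The WT mean of Mthfd1 itself was 7.63 ± 0.10 (SD, n = 4) and its Mthfd1S+/- mean 7.79 ± 0.23 (SD, n = 2); the sources used here do not say how the allele alters this transcript, so it does not check the genotypes.

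Clusters of other genes were ranked by nearness to the mean profile of the genes over the 6 mice. Predicted genes, gene segments of immune receptors, small RNA genes and olfactory and vomeronasal receptor genes were left out. The 8 nearest of the rest were Ly6g2, Zfp616, Tes, Cryga, Lgals9, Rnf213, Mall and Serpinb5. Their root mean square differences from that profile, on the log2 scale, ran from 0.036 to 0.064, against 0.28 for the median cluster and 0.060 to 0.37 for the genes themselves. Lgals9, the gene of galectin-9, read 11.69, 11.47, 11.59 and 11.31 in WT and 11.21 and 11.13 in Mthfd1S+/- mice. Rnf213, a large ubiquitin ligase, read 8.75, 8.32, 8.56 and 8.18 in WT and 8.17 and 8.18 in Mthfd1S+/- mice. Zfp616 and Cryga are dim here, with values between 3.24 and 3.88.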

How the data were processed

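The authors deposited log2 expression values, 1 per transcript cluster and array. The submitters' processing notes name Affymetrix Expression Console; version, algorithm, background correction and build were not given in the sources used here. That the scale is log2 was judged from the deposited values, which run from 1.06 to 13.5. All 6 columns of the table belong to a sample. Of 41345 clusters, the 23521 with exactly 1 platform symbol were tested by a two-sided limma fit without covariates (version 3.58.1, R 4.3.3; lmFit, eBayes), with Benjamini-Hochberg adjustment over all of them; 1814 with several symbols and 16010 with none were left out of the test. The labels call the arrays biological replicates, each from its own mouse. Any shift that normalization removed from all clusters cannot be seen, detection calls were not used, and precision is limited by the number of arrays. The procedure was tested on simulated data with changes larger than any difference of the genes here. It does not show how often differences of their size are found. The genes and lists were chosen with earlier results of these data known, so no list was given a test. Mouse values are printed for genes at an unadjusted p under 0.05, for genes whose groups do not overlap and for the 3 with the largest WT range; of other lists up to 4 genes with the smallest p, and the 8 clusters of nearest profile, could be named. Alternatives left out each array, rescaled the arrays, changed the clusters tested, the variance or the row per gene, or added a block or covariate. Promoter windows are RefSeq's (GRCm38.p6) and were matched by gene; the array's coordinates were not used.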

Additional observations from a re-analysis of the deposited data

Results flagged for a closer look

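Of the 33 genes, 1 had a WT mouse far from the other 3 by Dixon's criterion for 4 samples. Isg20 read 8.19 in WT mouse 2, with a gap to the next WT mouse of 0.915 of the whole WT range. Chance flags about 1 in 20 groups, and 3.03% of the genes were past the criterion against 4.92% of all tested clusters. WT mouse 4, low in most of the genes, was past it in none of them.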

How the results depend on the processing

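No gene passed the adjusted threshold under any of the 16 alternatives; the smallest adjusted p in limma was 0.109, with the replicate block. The number of genes lower at an unadjusted p under 0.05 was 13 as reported. With single WT arrays left out it ran from 9 (without WT mouse 1 or WT mouse 3) to 21 (without WT mouse 4). The shares of all clusters were then 2.03%, 2.23% and 2.94%. Without Mthfd1S+/- mouse 2 the median log2 fold change of the genes was -0.20. The count was 4 with unmoderated least squares, when 2.24% of all clusters were lower at that p. It was 3 with a covariate for smooth muscle (the mean of its markers), when 2.03% of all clusters were lower. The replicate block gave 21, when 4.32% of all clusters were lower at that p against 2.44% without it. The labels do not say that the replicate numbers pair mice. Only 2 pairs could be formed, and their deviations correlated at 0.117 and -0.0444, which cannot decide whether mice were paired. The number of genes with both Mthfd1S+/- mice below all WT mice, 11 as reported, ran from 11 to 24 with single arrays left out: 24 without WT mouse 4 and 22 without Mthfd1S+/- mouse 1. A fit with a lone Mthfd1S+/- mouse assumes that it varies like the WT mice. The number with a lower mean stayed between 26 and 32, and the median log2 fold change between -0.16 and -0.39.

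Of 523 combinations of a gene and an alternative, 14 changed sign, in 7 genes, and 26 genes never did. The differences of these 7 as reported ran from -0.01 (Bst2) to -0.26 (Irf7, the size of the list's median) and passed no threshold. With single arrays left out, Bst2 ran from -0.096 to 0.068, Ifi35 from -0.095 to 0.043, Rsad2 from -0.28 to 0.070 and Ifit3 from -0.39 to 0.12. Bst2 became 0.0013, 0.021 and 0.068 without WT mouse 1, WT mouse 3 and Mthfd1S+/- mouse 1; it was 0.011 after quantile normalization and 0.013 with arrays centred on their medians. Ifi35 became 0.043 without WT mouse 1. Without Mthfd1S+/- mouse 2, Ifit3 became 0.12 and Rsad2 0.070. With the smooth muscle covariate Irf9 became 0.051, Irf7 0.073, Trim25 0.072, Ifit3 0.0050, Rsad2 0.13 and Ifi35 0.027. The cause was not tested. Detection calls were not used, so how far signal over background limits the dimmer genes, such as Mx1, Mx2, Ifit2 and Trim30a, is not known.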
